A study of Mus musculus with 57 samples.

Results

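The regions described here were open in both E6.0 mouse embryo libraries and were listed in no EpiSC library and not in the E7.5 posterior library. EpiSCs are epiblast stem cells, lines derived from the epiblast of the early embryo. Open chromatin was mapped by ATAC-seq, in which a transposase inserts adapters where DNA is accessible. A region was a peak of the first E6.0 list that overlapped a peak of the second by at least 1 bp. It also had no overlap with the 3 lists of wild-type EpiSCs at 0 h, wild-type EpiSCs after 48 h of CHIR99021 and wild-type E7.5 posterior tissue. The rule found 12242 such regions, which were 27.2% of the 45003 regions shared by both E6.0 lists. They were chosen from measured ATAC-seq calls, so their absence from the 3 lists and their presence in both E6.0 lists describe the choice and are no finding. They are called EpiSC/E7.5-absent regions below, and the E7.2 libraries were not used in the choice.

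Chromatin accessibility changes quickly around gastrulation, when the epiblast leaves its pluripotent state and forms the primitive streak and the germ layers. Open sites away from promoters are often enhancers. Active ones tend to carry H3K27ac and promoters H3K4me3, while Polycomb-bound sites carry H3K27me3, the product of the PRC2 enzyme, and bind Ring1b, the catalytic part of PRC1. EpiSCs are used as a culture model of the epiblast, and whole early embryos also hold extraembryonic lineages.

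The embryo groups were wild-type E6.0 (2 libraries), wild-type E7.2 (2 libraries) and wild-type E7.5 posterior (1 library). The labels describe the removal of extraembryonic tissue and primitive endoderm for the explants from which EpiSCs were derived, at E6.0 before streak formation. They do not say whether such tissue was removed from the embryos used for ATAC-seq, nor how many embryos were pooled. All EpiSC groups were cultured with Fgf-basic, Activin A and IWP2, an inhibitor of Wnt secretion. Stimulation meant withdrawal of IWP2 and addition of either CHIR99021 (called Chiron in the labels, 3 µM), which activates Wnt signalling inside the cell by inhibiting GSK3, or Wnt3a (125 ng/mL). EpiSC ATAC-seq was done in wild-type cells at 0 h and at 48 h of CHIR99021, with 1 library each. H3K27ac was mapped in wild-type cells at 0 h (1 library) and at 24 h of CHIR99021 (2 libraries). In cells lacking Wnt3 (Wnt3KO), H3K27ac and H3K4me3 were mapped before CHIR99021 and after 6, 12 and 72 h of it, with 1 library each. H3K27me3 was mapped in the same mutant cells at 0 h (2 libraries), after Wnt3a for 5 h and at 6, 12 and 72 h of CHIR99021, and Ring1b at 0 h (2 libraries), after Wnt3a for 5 h and at 72 h. Nothing in the labels states that replicate libraries are from different cultures or litters, and their spread may therefore be technical.

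The E6.0 lists held 57569 and 61933 regions, the E7.2 lists 33881 and 72433, the E7.5 posterior list 42338, and the EpiSC lists 41309 at 0 h and 38032 at 48 h. No read counts are given in the lists and the depth is unknown. Absence from a list cannot be told apart from a signal below the authors' calling threshold. The peak names inside the files carry other stage names than the labels: E65 and embryo63 for E6.0, E75young and embryo73 for E7.2, and E75HF for E7.5. The labels were followed throughout. The names also show 2 processing folders, and each holds 1 E6.0 and 1 E7.2 library. The EpiSC 0 h and E7.5 posterior lists came from the folder of the first replicates, and the EpiSC 48 h list from that of the second. Regions were not matched to genes, since no gene annotation in mm9, the build of the files, was used here. Whether the EpiSC/E7.5-absent regions lie near genes of extraembryonic tissue was therefore not tested.

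Applied first, the EpiSC 0 h list removed most of the regions that the rule left out, but the other 2 lists held most of these too. Without the EpiSC 0 h list the rule found 16551 regions. Of the 57569 regions of the first E6.0 list, 45003 (78.2%) overlapped the second. Of those, 16920 (37.6%) had no overlap with EpiSCs at 0 h, 15095 (33.5%) none with EpiSCs at either time, and 12242 (27.2%) none with the E7.5 posterior list as well. The remaining shared regions fell into 3 classes that serve as references. There were 8573 (19.0%) also listed in EpiSCs but not in E7.5 posterior tissue, 2853 (6.34%) also listed in E7.5 posterior tissue but not in EpiSCs, and 21335 (47.4%) listed in both.

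The EpiSC/E7.5-absent regions were weak among E6.0 regions, with a small set of strong ones. The fold enrichment is the authors' value for each peak over local background and orders regions only within a list. In the first E6.0 list the fold of the EpiSC/E7.5-absent regions ran from 2.03 to 33.2, with a median of 6.28 and quartiles of 5.05 and 8.06. In the second list it ran from 1.78 to 36.7, with a median of 5.55. Over all shared E6.0 regions the medians were 8.64 and 7.68. The median percentile of the EpiSC/E7.5-absent regions within the whole list was 38.3 in the first and 42.6 in the second. A fold of at least 15 in the first list was reached by 218 (1.78%) of them and by 21.7% of all shared regions, and 3001 (24.5%) were below 5, against 12.3% of all. They were also short, with a median length of 332 bp (range 153 to 3449), against 518 bp over all shared regions. The ranking of the EpiSC/E7.5-absent regions was only partly shared by the replicates, with a Spearman rho of 0.462 between the folds of the 2 lists over 12242 regions. These are points of a pair of libraries and not independent replicates. Strength entered the choice through the overlap of called peaks, so these values are a description.

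**Figure D1:**
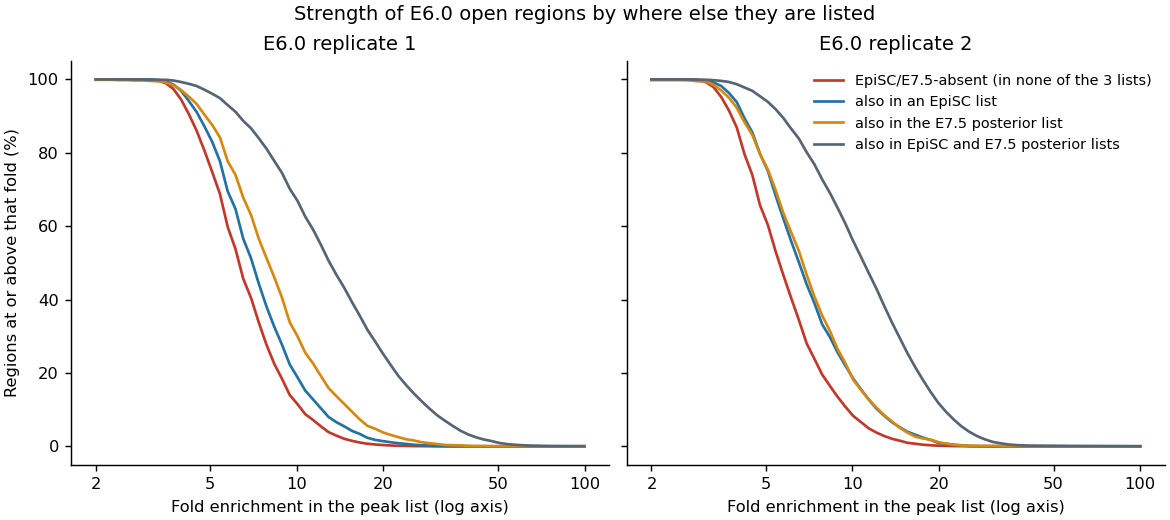
Share of E6.0 regions (vertical axis, %) at or above a given fold enrichment (horizontal log axis), for each E6.0 replicate and for 4 classes of shared regions. The curve of the 12242 EpiSC/E7.5-absent regions falls first in both replicates except at the lowest folds, where the classes lie close together, with medians of 6.28 and 5.55, against 13.1 and 10.9 for regions also listed in both EpiSCs and E7.5 posterior tissue.

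In base pairs of overlap and distance, few EpiSC/E7.5-absent regions were close to the limits of the rule. Their median overlap with the second E6.0 list was 246 bp, and 122 overlapped it by under 50 bp. The nearest region of the 3 lists was at a median distance of 8121 bp. It was within 100 bp for 77 regions, within 1 kb for 1363 (11.1%) and more than 10 kb away for 5401 (44.1%). The 77 just inside had median folds of 4.84 and 5.82 in the E6.0 lists. Another 87 shared regions were left out through overlaps of under 50 bp only, and had median folds of 4.45 and 5.27. The calling of peaks is a further limit. With ATAC-seq lists of equal length, 3500 of the 12242 (28.6%) still met the rule.

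The strongest EpiSC/E7.5-absent regions lay 1253 to 165441 bp from the nearest region of the 3 lists, and all 10 leading ones were listed at E7.2 in both libraries. They were ranked by the mean of their ranks in the E6.0 lists, and regions within 100 kb of a region of the input libraries were set aside. The leading region, chr2:111866327-111867672 (1346 bp), had folds of 31.9 and 26.9 in the E6.0 lists. Its nearest region in the 3 lists was 165441 bp away, in E7.5 posterior tissue. At E7.2 it was listed with folds of 6.81 and 14.7. Among the 10, it was the one with an EpiSC mark, H3K27ac at 24 h of CHIR99021, with folds of 3.81 and 4.20 in the replicates. The next, chr11:93475893-93477048, had folds of 25.7 and 25.1 at E6.0 and of 5.55 and 5.54 at E7.2. The region chr10:88180060-88180762 had the highest fold of all EpiSC/E7.5-absent regions in the first list, 33.2, and 21.3 in the second. It was listed at E7.2 with folds of 5.91 and 6.96. The region chr6:140212229-140213293 had folds of 25.5 and 24.6 at E6.0, and of 8.42 and 13.8 at E7.2. The rest of the 10 had folds of 22.5 to 31.4 in the first E6.0 list and of 19.5 to 23.3 in the second. None of these 9 overlapped any EpiSC mark list. Fold values of E6.0 and E7.2 come from lists of different length and show no change by themselves.

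Each of the 2 E7.2 libraries listed a smaller share of the EpiSC/E7.5-absent regions than of all shared E6.0 regions. The first E7.2 library held 2850 of them, or 23.3% (95% Wilson interval 22.5 to 24.0), against 61.6% of all shared E6.0 regions. The second, longer list held 7418, or 60.6% (59.7 to 61.5), against 86.1% of all. The mean was 41.9% ± 26.4 (SD, n = 2) for EpiSC/E7.5-absent regions and 73.9% ± 17.3 (SD, n = 2) for all shared regions. The gap between these means was larger than the SD of either mean. It was smaller than the difference between the 2 library shares of EpiSC/E7.5-absent regions, and the 2 lists differ in length. Within each library EpiSC/E7.5-absent regions had the lower share. With 2 libraries no test was run, and all Wilson intervals here cover counting error only. The rule removed regions of E7.5 posterior tissue, the stage next to E7.2. Without that list in the rule their shares at E7.2 were 31.5% and 67.2%.

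E7.2 presence split the EpiSC/E7.5-absent regions into 3 groups, of which the regions in both lists were the smallest. Both E7.2 lists held 2642 (21.6%, against 60.9% of all shared regions), 1 list held 4984 (40.7%, against 25.9%) and neither held 4616 (37.7%, against 13.2%). Of those in 1 list, 4776 (39.0%, against 25.2%) were in the second only and 208 (1.70%, against 0.733%) in the first only. Regions in both lists were stronger and longer at E6.0, with median folds of 7.67 and 7.11 and a median length of 437 bp. Regions in neither had median folds of 5.57 and 5.06 and a median length of 286 bp, and those in 1 list lay between them, with medians of 6.43, 5.49 and 336 bp.

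The spread between the E7.2 libraries was small once their lists had the same length. With the second E7.2 list cut to its 33881 regions of highest −log10 p, and all other lists as deposited, the libraries held 23.3% and 21.1% of the EpiSC/E7.5-absent regions, a mean of 22.2% ± 1.58 (SD, n = 2). All shared E6.0 regions then had 61.6% and 61.4%. Both lists held 1453 EpiSC/E7.5-absent regions (11.9%), 1 list 2521 (20.6%) and neither 8268 (67.5%), against 53.1%, 16.8% and 30.1% of all. This setting was added after the data were seen. When all ATAC-seq lists were cut to that length, which changes the choice as well, 4401 regions met the rule. Of these, 48.2% were in the first E7.2 list and 41.4% in the second, against 83.5% and 83.9% of all shared regions. Among the 4401, 3500 (79.5%) were also among the 12242, of which they were 28.6%. Within the folder of the first replicates, 22848 of 57569 E6.0 regions were absent from the EpiSC 0 h and E7.5 posterior lists, and 15.6% of them were listed at E7.2, against 49.6% of all. Within the other folder, where the EpiSC 48 h list alone defined absence, 35187 of 61933 were absent, and 55.0% of them were listed at E7.2, against 72.6% of all. The values by folder were also added later, and the gap to all E6.0 regions was present in each folder.

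The share listed at E7.2 was higher for stronger EpiSC/E7.5-absent regions, and at each strength below that of the other classes. In the first E7.2 library the share went from 11.7% of the 3001 regions with an E6.0 fold below 5 to 65.1% (58.6 to 71.2) of the 218 with a fold of at least 15. In the second it went from 43.5% to 92.2% (87.9 to 95.1). In that weakest bin, regions also listed in EpiSCs were in the E7.2 lists in 25.5% and 69.7%, those also in E7.5 posterior tissue in 37.2% and 85.6%, and those in both in 54.2% and 95.5%. In the strongest bin these 3 classes had 89.2% to 99.7% in the first library and 100% in the second. Of the 100 strongest EpiSC/E7.5-absent regions, 80 were in both E7.2 lists and 1 in neither, and of the 1000 strongest, 604 were in both and 102 in neither. Over all shared E6.0 regions of any strength, 60.9% were in both and 13.2% in neither, so the 1000 strongest were near that level.

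**Figure D2:**
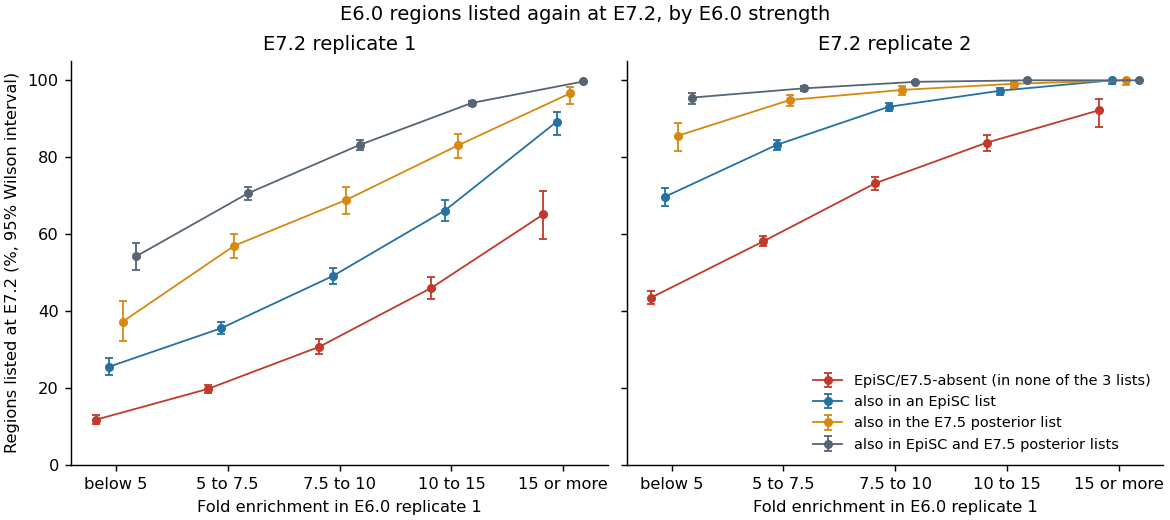
Share of E6.0 regions listed at E7.2 (vertical axis, %, with 95% Wilson intervals) by their fold enrichment in the first E6.0 list, for each E7.2 replicate and 4 classes. EpiSC/E7.5-absent regions lie lowest in every bin and rise from 11.7% to 65.1% in the first E7.2 library and from 43.5% to 92.2% in the second.

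The 5 strongest EpiSC/E7.5-absent regions found in neither E7.2 list were listed at E6.0 alone among the ATAC-seq libraries. The first was chr6:129299661-129300267 (607 bp), with folds of 19.5 and 15.3 in the E6.0 lists and its nearest region in the 3 lists 15507 bp away, in EpiSCs at 0 h. The others were chr3:126309584-126310088 (14.6 and 12.3), chr3:39232055-39232398 (12.9 and 14.7), chr2:68322967-68323536 (13.3 and 12.7) and chr11:43095053-43095795 (15.6 and 11.1). None overlapped a region of an EpiSC mark.

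EpiSC/E7.5-absent regions neighboured each other more often than the pooled regions outside the set neighboured them, mainly at short range. The nearest other shared E6.0 region was itself EpiSC/E7.5-absent for 3889 of them, or 31.8% (30.9 to 32.6), against 25.7% (25.2 to 26.2) of regions outside the set and 27.3% of all shared regions. Regions also listed in E7.5 posterior tissue but not in EpiSCs had 30.1% (28.5 to 31.8), and this interval overlaps that of the set. Those also listed in EpiSCs had 26.4% if absent from E7.5 posterior tissue and 24.8% if listed there. The higher share was therefore not particular to EpiSC/E7.5-absent regions. The difference between the set and all regions outside it was largest where the nearest neighbour was under 2 kb away, with 36.3% against 20.9%. It was 29.4% against 26.7% at 2 to 10 kb, 29.9% against 26.2% at 10 to 50 kb, and 34.7% against 30.9% beyond.

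**Figure D3:**
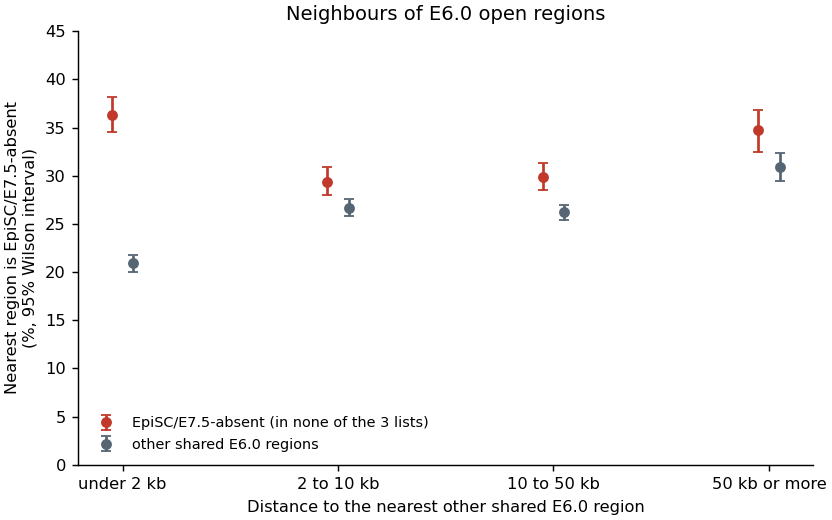
Share of E6.0 regions whose nearest other shared E6.0 region is EpiSC/E7.5-absent (vertical axis, %, with 95% Wilson intervals), by the distance to that neighbour, for EpiSC/E7.5-absent regions and for other shared regions. The points are farthest apart under 2 kb, at 36.3% and 20.9%, and within 4 points of each other at longer distances.

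Most EpiSC/E7.5-absent regions were nevertheless isolated. The median distance to the nearest other one was 43861 bp, and 2639 (21.6%) had another within 10 kb. Joined at gaps of at most 10 kb, they formed 1036 pairs and 173 runs of 3 or more, which held 567 regions (4.63%). The runs of 3 or more comprised 136 of 3, 28 of 4, 8 of 5 and 1 of 7. Regions in runs of 3 or more were listed at E7.2 in 24.2% and 63.0% by library, and single ones in 22.7% and 60.0%. They overlapped H3K27me3 in both 0 h replicates in 5.64%, against 2.61% of those in pairs and 1.27% of single ones. The share of EpiSC/E7.5-absent regions among shared regions ranged by chromosome from 23.7% on chromosome 11 to 31.3% on chromosome 1, leaving out Y and unplaced sequence, and was 25.1% on X.

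The longest run held 7 EpiSC/E7.5-absent regions among 10 shared E6.0 regions in chr3:99039587-99066202 (26616 bp). All 7 were in the second E7.2 list and 2 in the first. Their folds were 3.81 to 8.24 in the first E6.0 list and 3.69 to 6.49 in the second. H3K27me3 at 0 h covered 2 and 4 of the 7 in its replicates, and Ring1b likewise 2 and 4. From the 8 runs of 5, those with the highest median fold were taken, a choice made after the values were seen. In the run at chr7:20517893-20538999, 3 of 5 regions were in the second E7.2 list and 0 in the first, and none had a Polycomb mark at 0 h. In the run at chr16:94066338-94095407, 4 of 5 were in the second E7.2 list and 1 in the first, and both H3K27me3 replicates and both Ring1b replicates covered 3 of 5.

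Few EpiSC/E7.5-absent regions carried a histone mark in EpiSCs. Any of the marks in unstimulated cells was found at 532 (4.35%), against 39.3% of all shared E6.0 regions, and any mark at any time at 1072 (8.76%), against 48.4%. For regions also listed in E7.5 posterior tissue but not in EpiSCs, these shares were 7.75% and 15.9%. The marks come from other libraries than the rule, but also from EpiSCs. The regions were not called open in wild-type EpiSCs, so low shares of marks are not independent of the choice. The H3K4me3, H3K27me3 and Ring1b lists compared, and part of the H3K27ac lists, are of Wnt3KO cells. Open chromatin was not mapped in those cells, so whether the regions were open there is unknown. The input libraries, which had no antibody, overlapped 9 and 13 EpiSC/E7.5-absent regions (0.0735% and 0.106%, against 0.258% and 0.462% of all).

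In relation to all shared E6.0 regions, most of which were also listed in EpiSCs, the marks of active chromatin were the rarest. H3K27ac at 0 h was also rare at regions listed in E7.5 posterior tissue but not in EpiSCs. There 0.701% (0.454 to 1.08) had it in wild-type cells and 0.421% (0.241 to 0.734) in Wnt3KO cells, while 3.51% (2.89 to 4.24) had H3K4me3 at 0 h. H3K27ac of wild-type EpiSCs at 0 h overlapped 104 EpiSC/E7.5-absent regions, or 0.850% (0.702 to 1.03), against 21.0% of all. It was 3.63%, against 21.0%, when the EpiSC 0 h list was left out of the rule, and 1.30%, against 31.8%, with ATAC-seq lists of equal length. In Wnt3KO cells it overlapped 26 before CHIR99021 and 23, 29 and 13 after 6, 12 and 72 h, which were 0.212%, 0.188%, 0.237% and 0.106%, against 20.2%, 16.0%, 18.5% and 17.9% of all. H3K4me3 overlapped 135 at 0 h, or 1.10% (0.933 to 1.30), against 33.7% of all. This share was 2.03% without the EpiSC 0 h list in the rule, 1.68% at equal list length and 0.524% for regions at least 1 kb from the 3 lists. At 6, 12 and 72 h it overlapped 95, 114 and 146, or 0.776%, 0.931% and 1.19%, against 30.7%, 31.3% and 34.0%. H3K4me3 at 0 h was at a median distance of 42133 bp from EpiSC/E7.5-absent regions and 12702 bp from all shared regions. With 1 library at each of these times there is no replicate error, and no difference between times was read. A pair of wild-type H3K4me3 libraries with contradictory labels overlapped 2.26% and 1.54% of EpiSC/E7.5-absent regions, against 37.4% and 35.4% of all.

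H3K27ac at 24 h of CHIR99021 was found at more EpiSC/E7.5-absent regions than H3K27ac at 0 h. The 24 h replicates overlapped 472 (3.86%, against 38.0% of all) and 430 (3.51%, against 36.7%), with a mean of 3.68% ± 0.243 (SD, n = 2). Both replicates shared 331 regions (2.70%, against 35.0%), of which 42 were also listed at 0 h (0.343%, against 19.4%) and 289 were not. Those 289 were 2.36% of EpiSC/E7.5-absent regions, against 15.6% of all. The wild-type 24 h lists were longer (29056 and 27422 regions) than the 0 h list (14453) and came from another folder, so stimulation, list length and folder cannot be told apart. Of the 289, 42.9% (37.3 to 48.7) and 76.1% (70.9 to 80.7) were in the E7.2 lists, against 23.3% and 60.6% of all EpiSC/E7.5-absent regions. Of the 104 with H3K27ac at 0 h, 15.4% (9.70 to 23.5) and 56.7% (47.1 to 65.8) were. No test of these differences was run.

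The strongest EpiSC/E7.5-absent regions with H3K27ac at 0 h in wild-type cells were chr9:15236066-15237006, chr10:36267304-36268155 and chr4:56945143-56945378. Their H3K27ac folds were 6.03, 7.45 and 6.56, and their folds at E6.0 were 21.0 and 16.9, 14.8 and 16.9, and 11.4 and 13.5. All 3 were in both E7.2 lists, and none was listed for H3K27ac at 24 h or in Wnt3KO cells. The strongest region listed for H3K4me3 at all 4 times was chr6:124865232-124865934, with folds of 17.4, 22.3, 20.5 and 16.6 at 0, 6, 12 and 72 h. It lay 1153 bp from a region open in EpiSCs at 0 h. The region chr8:4087289-4087773 also had H3K4me3 at all 4 times, with folds of 10.1 to 14.7, and H3K27ac at 24 h in both replicates (8.92 and 7.09). It was 52398 bp from the nearest EpiSC region and in neither E7.2 list.

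The Polycomb marks were less depleted in relation to all shared E6.0 regions. Regions also listed in E7.5 posterior tissue but not in EpiSCs had means of 3.59% ± 1.21 for H3K27me3 and 1.61% ± 0.198 for Ring1b at 0 h (SD, n = 2). H3K27me3 at 0 h overlapped 228 EpiSC/E7.5-absent regions (1.86%, against 3.69% of all) in the first replicate and 317 (2.59%, against 5.50%) in the second, with a mean of 2.23% ± 0.514 (SD, n = 2), against 4.60% ± 1.28. Ring1b at 0 h overlapped 136 (1.11%, against 2.29%) and 125 (1.02%, against 2.37%), with a mean of 1.07% ± 0.0635 (SD, n = 2), against 2.33% ± 0.0566. Both gaps were larger than the SD of either mean. With no region of the 3 lists within 1 kb, the means were 1.29% for H3K27me3 and 0.717% for Ring1b. Both H3K27me3 replicates shared 208 EpiSC/E7.5-absent regions (1.70%, against 3.38%), both Ring1b replicates 103 (0.841%, against 1.73%), and 83 had all 4 (0.678%, against 1.29%). After Wnt3a for 5 h, H3K27me3 overlapped 63 (0.515%, against 0.998%) and Ring1b 153 (1.25%, against 3.60%). H3K27me3 overlapped 90, 102 and 120 at 6, 12 and 72 h of CHIR99021 (0.735%, 0.833% and 0.980%, against 1.58%, 1.93% and 2.81%). Ring1b overlapped 16 at 72 h (0.131%, against 0.731%). Except for Ring1b after Wnt3a, the lists after stimulation were shorter than those at 0 h, so fewer regions there show no loss by themselves.

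**Figure D4:**
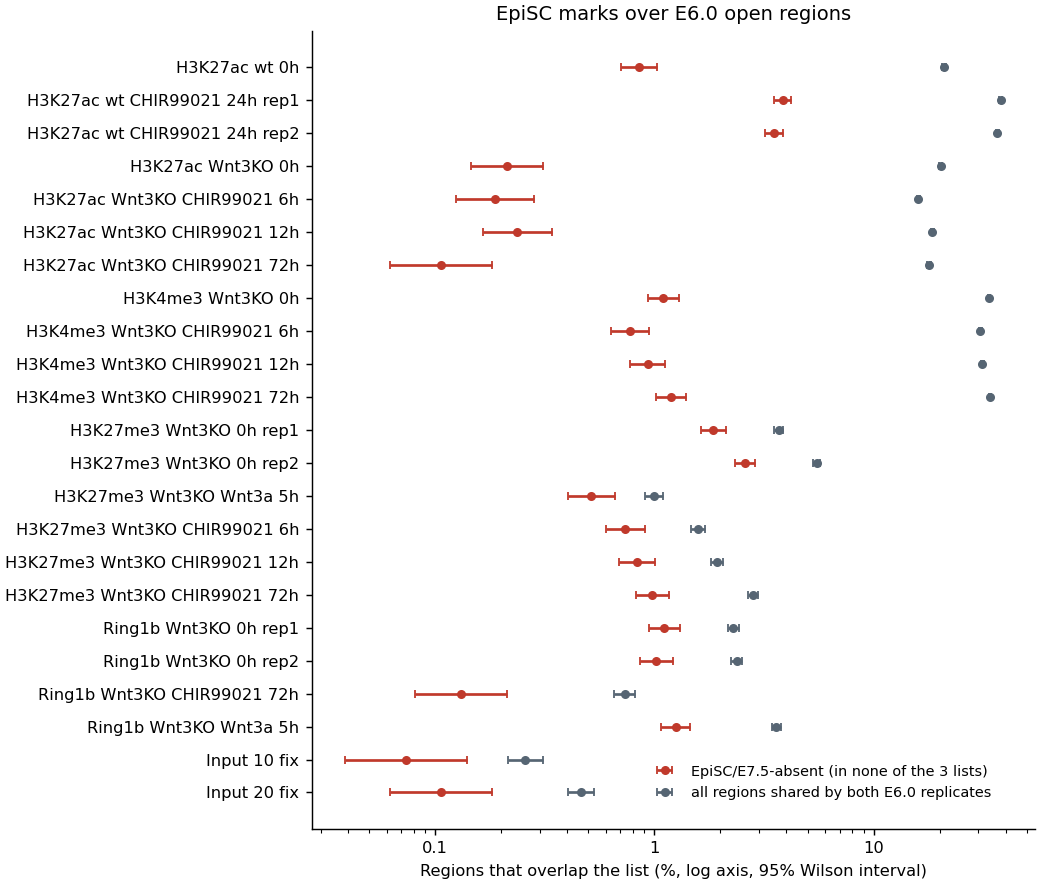
Share of regions that overlap each EpiSC list (horizontal log axis, %, with 95% Wilson intervals) for EpiSC/E7.5-absent regions and for all regions shared by both E6.0 replicates. The gap is widest for H3K27ac and H3K4me3, such as 0.850% and 21.0% for wild-type H3K27ac at 0 h, and narrower for H3K27me3 and Ring1b, such as 2.59% and 5.50% for the second H3K27me3 replicate.

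Around the summits of EpiSC/E7.5-absent regions, the share covered by Polycomb marks was highest at the summit, and that of H3K4me3 and of H3K27ac at 0 h was lower there than 5 to 10 kb away. H3K27me3 covered the summit base of 1.49% and 2.16% of EpiSC/E7.5-absent regions in its 0 h replicates, and on average 0.453% and 0.739% of positions 5 to 10 kb away, which is 3.30 and 2.93 times as many. For Ring1b the shares were 0.956% and 0.801% at the summit and 0.385% and 0.404% at that distance, or 2.48 and 1.98 times as many. H3K4me3 at 0 h went the other way, with 0.825% at the summit and 1.75% at that distance, and wild-type H3K27ac at 0 h likewise, with 0.498% and 0.820%. H3K27ac at 24 h was about level, with 2.48% and 2.05% at the summit in its replicates and 2.11% and 1.96% away from it. Over all shared E6.0 regions, wild-type H3K27ac at 0 h covered 10.2% of summits and 0.850% of positions 5 to 10 kb away. H3K4me3 covered 29.8% and 1.76%. At that distance the active marks were thus as frequent around EpiSC/E7.5-absent regions as around all E6.0 regions. The inputs covered 6 and 11 summits of EpiSC/E7.5-absent regions (0.0490% and 0.0899%), which was 3.77 and 3.23 times their level 5 to 10 kb away (0.0130% and 0.0278%), ratios that rest on few regions. Over all shared E6.0 regions the ratios were 3.00 and 3.15 for H3K27me3 and 3.69 and 3.17 for Ring1b, the latter higher than at EpiSC/E7.5-absent regions. There the inputs covered 89 and 145 summits (0.198% and 0.322%), with ratios of 5.45 and 5.72, above those of both Polycomb marks. A higher share at the summit than 5 to 10 kb away was therefore not particular to the Polycomb marks. The shape close to the summit differed for H3K27me3. At EpiSC/E7.5-absent regions the first replicate covered 1.10% at 500 bp before the summit, 1.49% at it and 1.02% at 500 bp after it, and the second replicate 1.67%, 2.16% and 1.58%. Over all shared regions it covered 1.75%, 1.63% and 1.71% in the first and 2.99%, 2.59% and 3.00% in the second, a slight dip. No test of this difference was run. At the 10879 EpiSC/E7.5-absent regions at least 1 kb from the 3 lists, H3K27me3 covered 0.919% and 1.22% of summits, against 0.346% and 0.575% of positions 5 to 10 kb away. There H3K4me3 covered 0.377% of summits, against 1.65% at that distance, but only 0.211% and 0.147% at 500 bp before and after the summit. The rule leaves out summits open in EpiSCs, and the 1 kb limit also leaves out such sites beside them. Low shares of active marks near the summits are therefore not independent of the choice.

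**Figure D5:**
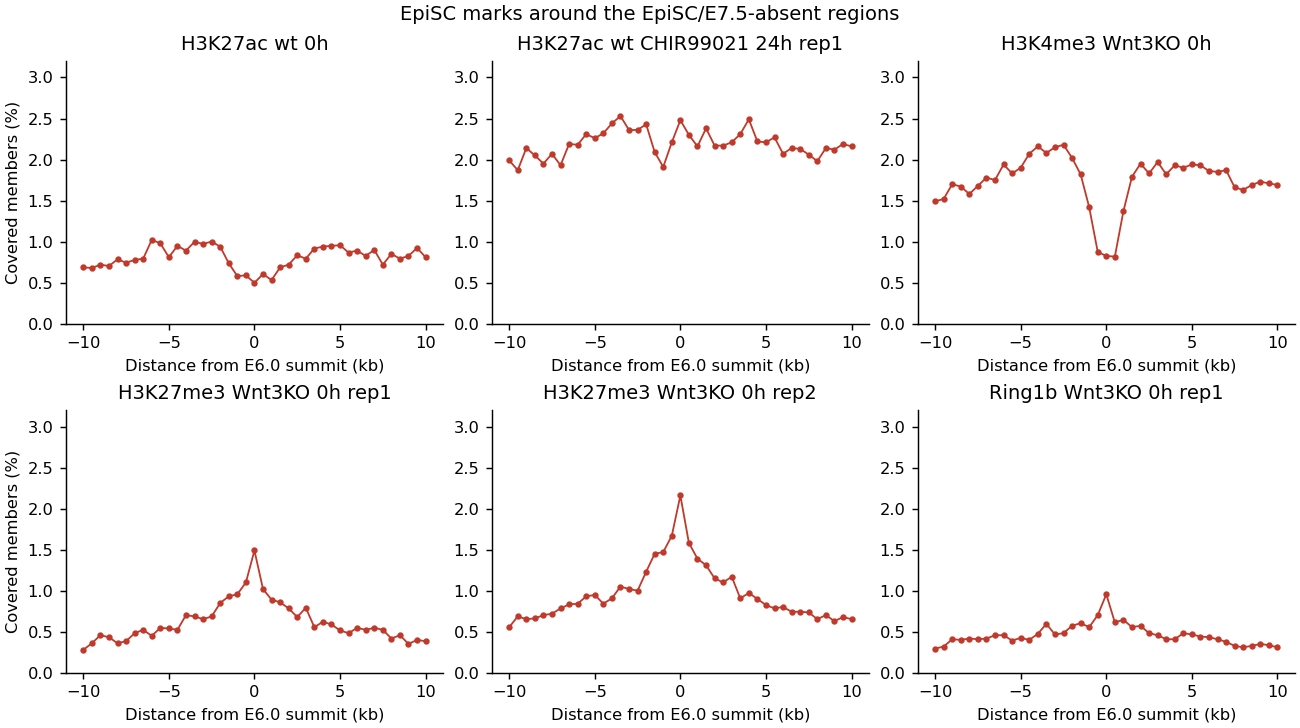
Share of the 12242 EpiSC/E7.5-absent regions covered by a mark (vertical axis, %) at positions every 500 bp up to 10 kb on both sides of the E6.0 summit (horizontal axis, kb), for 6 EpiSC lists. H3K27me3 and Ring1b have a maximum at the summit, at 1.49%, 2.16% and 0.956%, while H3K4me3 and wild-type H3K27ac at 0 h have a dip around it, with 0.825% and 0.498% at the summit.

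The share with Polycomb marks or H3K4me3 was highest among the weakest EpiSC/E7.5-absent regions and among those close to regions of the 3 lists. H3K27me3 in both replicates was found at 97 of the 3001 with an E6.0 fold below 5 (3.23%), 83 of 5437 at 5 to 7.5 (1.53%), 21 of 2389 at 7.5 to 10 (0.879%), 7 of 1197 at 10 to 15 (0.585%) and 0 of 218 above. Ring1b in both replicates went from 1.80% to 0 over the same bins, and H3K4me3 at 0 h from 2.20% to 0. The regions also listed in EpiSCs but not at E7.5 showed the same order, with H3K27me3 at 3.95%, 2.58%, 1.70%, 0.666% and 0%, Ring1b going from 2.12% to 0 and H3K4me3 from 20.3% to 1.44%. The order was not shared by all classes. In regions also listed in E7.5 posterior tissue but not in EpiSCs, H3K27me3 was at 5.57%, 2.49%, 2.78%, 0.528% and 2.69%. H3K4me3 there was at 3.52% in the weakest and 3.70% in the strongest bin. In regions listed in both, H3K4me3 went from 29.8% up to 85.7%. H3K27ac at 24 h in both replicates had 3.53% in the weakest and 3.67% in the strongest bin of EpiSC/E7.5-absent regions. Of the 1363 regions within 1 kb of the 3 lists, 98 (7.19%) had H3K27me3 in both replicates, against 110 (1.01%) of the 10879 farther away. For Ring1b the numbers were 42 (3.08%) and 61 (0.561%), and for H3K4me3 78 (5.72%) and 57 (0.524%). E7.2 shares hardly differed by this distance, with 21.8% and 63.3% near and 23.5% and 60.3% far by library.

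Of the 208 EpiSC/E7.5-absent regions with H3K27me3 in both 0 h replicates, 98 and 92 had Ring1b in its replicates, and 40 had H3K4me3 at 0 h (0.327% of all EpiSC/E7.5-absent regions, against 2.44% of all shared regions). Over all shared E6.0 regions, 1523 had H3K27me3 in both 0 h replicates. Of those 1523, 582 had Ring1b in both replicates, a proportion close to the 83 of 208 here, and 1100 had H3K4me3 at 0 h. For the lists after stimulation no such reference is given. None of the 208 had wild-type H3K27ac at 0 h, against 0.850% of all EpiSC/E7.5-absent regions. At 24 h, 6 (2.88%) had it in each replicate, against 3.86% and 3.51% of all EpiSC/E7.5-absent regions. With shares this low, the lack of overlap at 0 h was not read as a result about the 208. H3K27me3 was also listed at 71 of them at 6 h, 78 at 12 h and 87 at 72 h of CHIR99021, and at 50 after Wnt3a for 5 h. They were listed at E7.2 in 29.3% (23.6 to 35.8) and 67.3% (60.7 to 73.3) by library. The strongest was chr7:116095147-116095679, with E6.0 folds of 14.5 and 12.9, H3K27me3 folds of 4.25 and 9.04, and an open EpiSC region 410 bp away. The next, chr8:73415123-73415801, had E6.0 folds of 12.6 and 9.34 and H3K27me3 folds of 5.68 and 10.5 before stimulation. After 6, 12 and 72 h of CHIR99021 its H3K27me3 folds were 6.94, 8.85 and 6.00. For Ring1b in both replicates the strongest was chr12:57636627-57637608, with E6.0 folds of 10.5 and 10.7 and Ring1b folds of 8.94 and 7.17 at 0 h and 9.39 after Wnt3a. It was 517 bp from an open EpiSC region. In chr5:35740009-35740837 Ring1b (6.47 and 7.76) and H3K27me3 (3.95 and 5.48) were both listed in both 0 h replicates, with E6.0 folds of 9.40 and 7.44.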

How the data were processed

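The 32 deposited peak lists (7 ATAC-seq, 23 ChIP-seq and 2 input libraries) of 57 samples were used, and the other 25 samples were not analysed here. The submitters' processing notes name mm9 as the build and, for both assays, MACS2 2.1.0 and SAMtools 0.1.19. They add Bowtie2 2.1.0 with cutadapt 1.8.1 for ATAC-seq and Bowtie 1.1.0 for ChIP-seq. The tools of 4 ChIP-seq lists are not given in the sources read. Each list is of 1 library. The deposited fold enrichment is the ratio of signal over local background, the −log10 p and −log10 q values are from the authors' caller, and the deposited score was not used. The lowest −log10 p in an ATAC-seq list was 5.00.

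From these lists, overlaps of at least 1 bp, distances between region ends, ranks and 95% Wilson intervals were computed with pandas 2.3.3 and numpy 2.4.6, and the overlap code was tested on simulated data. A mark profile is the share of summits, or of positions at a set distance from them, that lie in a listed region. Replicated groups had 2 libraries each. No significance test was run, because lists carry no counts. All shared E6.0 regions, members included, served as reference. Regions named are the 10 strongest by mean rank of fold over both E6.0 lists, the 5 strongest in neither E7.2 list, and, from the 3 strongest for each mark at 0 h, those described. The 3 runs with the most members were named too. Those within 100 kb of an input region (293 of 12242) were not named. The members and lists were chosen with earlier results of these data known. Alternatives changed the overlap, the q-value limit, the list lengths, the distance that counts as absent and the lists and replicates in the rule. Rules without the 0 h or the 48 h EpiSC list, the folder split, E7.2 lists of equal length and leaving out members near input regions were added after seeing the data, as was the summit profile of members at least 1 kb from the 3 lists.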

Additional observations from a re-analysis of the deposited data

Results flagged for a closer look

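A pair of wild-type EpiSC H3K4me3 libraries with contradictory labels entered no comparison of conditions. They overlapped a larger share of the EpiSC/E7.5-absent regions than the input libraries did. The first overlapped 277 of the 12242 regions (2.26%, 95% Wilson interval 2.01 to 2.54, against 37.4% of all shared E6.0 regions). The second overlapped 189 (1.54%, 1.34 to 1.78, against 35.4%). The inputs overlapped 9 (0.0735%) and 13 (0.106%). The H3K4me3 lists held 17147 and 16798 regions and the input lists 253 and 424, so the lists differ in length as well, and these shares alone do not show a signal above the inputs. The part of list length in them was not tested. No difference between the 2 H3K4me3 libraries was read, because their conditions are not settled.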

How the results depend on the processing

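In all 67 combinations of setting and result, the share of EpiSC/E7.5-absent regions listed at E7.2 or marked in EpiSCs stayed below that of all E6.0 regions of the setting, and in all 12 settings for neighbours the share stayed above it. The settings reuse the same lists, and the mark shares are not independent of the choice. These counts are therefore no independent support. The values themselves counted as moved in 29 of 91 combinations. For the shares this meant a shift beyond the counting or replicate error. The number of members was judged by a wider limit, under which 10879, 15095 and 16551 did not count as moved from 12242. The E7.2 share, with its SD of 26.4 points, counted as moved in no setting. When overlaps had to reach 50% of the smaller region, H3K27ac was at 0.585% and Ring1b at 0.943%. With a −log10 q of at least 5 in every list Ring1b was at 1.15%, and with that limit in the E6.0 lists alone the neighbour share was 30.7%. With ATAC-seq lists of equal length there were 4401 members, with H3K27ac at 1.30%, H3K4me3 at 1.68%, Ring1b at 0.977% and a neighbour share of 21.8%. With only the E7.2 lists at equal length, the mean E7.2 share was 22.2%, which did not count as moved. With no region of the 3 lists within 1 kb, H3K27ac was at 0.625%, H3K4me3 at 0.524%, H3K27me3 at 1.29% and Ring1b at 0.717%. Without the E7.5 posterior list in the rule, H3K4me3 was at 1.56%, Ring1b at 1.17% and the neighbour share at 39.4%. Without the EpiSC 48 h list H3K4me3 was at 1.35% and the neighbour share at 33.3%. Without the EpiSC 0 h list H3K27ac was at 3.63%, H3K4me3 at 2.03%, Ring1b at 1.16% and the neighbour share at 42.8%. Leaving out 1 replicate at a time gave 21871 (E6.0 replicate 2 left out) to 24306 members (replicate 1 left out), E7.2 shares of 23.3% to 60.6%, H3K27ac of 0.686% to 0.930%, H3K4me3 of 0.933% to 1.19%, H3K27me3 of 1.76% to 2.59%, Ring1b of 0.833% to 1.11% and neighbour shares of 43.3% to 44.1%. The neighbour share depends on how many regions are members, so it has to be read beside that of all shared E6.0 regions. The latter was 26.4% with the q limit in the E6.0 lists alone and 33.7% without the E7.5 posterior list. It was 29.0% without the EpiSC 48 h list and 37.1% without the EpiSC 0 h list. Without E6.0 replicate 1 it was 39.7%, and without replicate 2 it was 38.3%. The causes of the shifts were not tested. No paired analysis was possible because no result comes from a fitted test that could take a replicate block. Within the folders, each of which pairs 1 E6.0 with 1 E7.2 library, the E7.2 shares were 15.6% and 55.0%, against 49.6% and 72.6% of all E6.0 regions there. Depth is unknown, and a region missing from a list may be a weak signal.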
